A study of Mus musculus with 12 samples.

Results

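The 50 genes described here encode enzymes of amino acid breakdown and of the urea cycle, and were measured in mouse liver. They were taken by symbol from the deposited count table of 15140 genes, all 50 were found in it, and all 50 passed the filter on low counts. The libraries came from male mice started at 7 to 8 weeks of age on a diet with 60 kcal% fat and kept on it for 3 months. The 6 KO libraries came from Phb1adipo-/- mice, in which the gene for prohibitin 1, a scaffold protein of the inner mitochondrial membrane, is deleted in adipocytes, and the 6 WT libraries came from wild-type mice on the same diet. The liver of the KO mice is not the targeted tissue, and the promoter that drives the deletion and the origin of the wild-type mice were not stated in the sources used here. There was no group on another diet.

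The liver is the main site where most amino acids are degraded. Amino groups are moved by transaminases to glutamate and aspartate, glutamate is deaminated in mitochondria, and the nitrogen leaves as urea, while the carbon skeletons feed glucose, ketone and lipid metabolism. Several of these genes, Tat foremost, are textbook targets of glucocorticoids and glucagon, and many are more active in hepatocytes near the portal vein than in those near the central vein. The methionine cycle supplies methyl groups, and its homocysteine can be drained by transsulphuration to cysteine and taurine.

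Total counts ran from 30348123 to 40828767 per library, and the lowest count of any of the 50 genes in any library was 148, so counting error was small beside the spread between libraries. Levels are given as CPM, counts scaled to a common library total. All 16 hepatocyte markers were measured, with a summed level of 100853 to 139350 CPM in KO and 98524 to 140978 CPM in WT. No label ties a library to an animal, and p-values therefore measure the spread between these 12 libraries. The 50 genes took 3.50% ± 0.223 of all counts in KO livers and 3.40% ± 0.353 in WT livers (SD, n = 6 each).

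In KO livers 5 of the 50 genes rose and 0 fell. They were Tat, which starts tyrosine breakdown, Kynu, which splits kynurenines in tryptophan breakdown, Got1, the cytosolic aspartate transaminase, Sdsl, related to serine dehydratase, and Cbs, which starts the conversion of homocysteine to cysteine. The rises were 1.51-fold to 1.99-fold. A gene was called at an adjusted p under 0.05 (edgeR quasi-likelihood test, Benjamini-Hochberg over 15000 genes), and by that rule 1.15% of all tested genes rose and 1.49% fell. At an unadjusted p under 0.05, 12 of the 50 were higher and 2 lower, against 1601 and 1583 of all 15000. The median log2 fold change of the 50 was 0.07, against 0.00 over all tested genes. Of the 50 values 29 were positive (58.0%), against 7586 of all 15000 (50.6%).

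**Figure D1:**
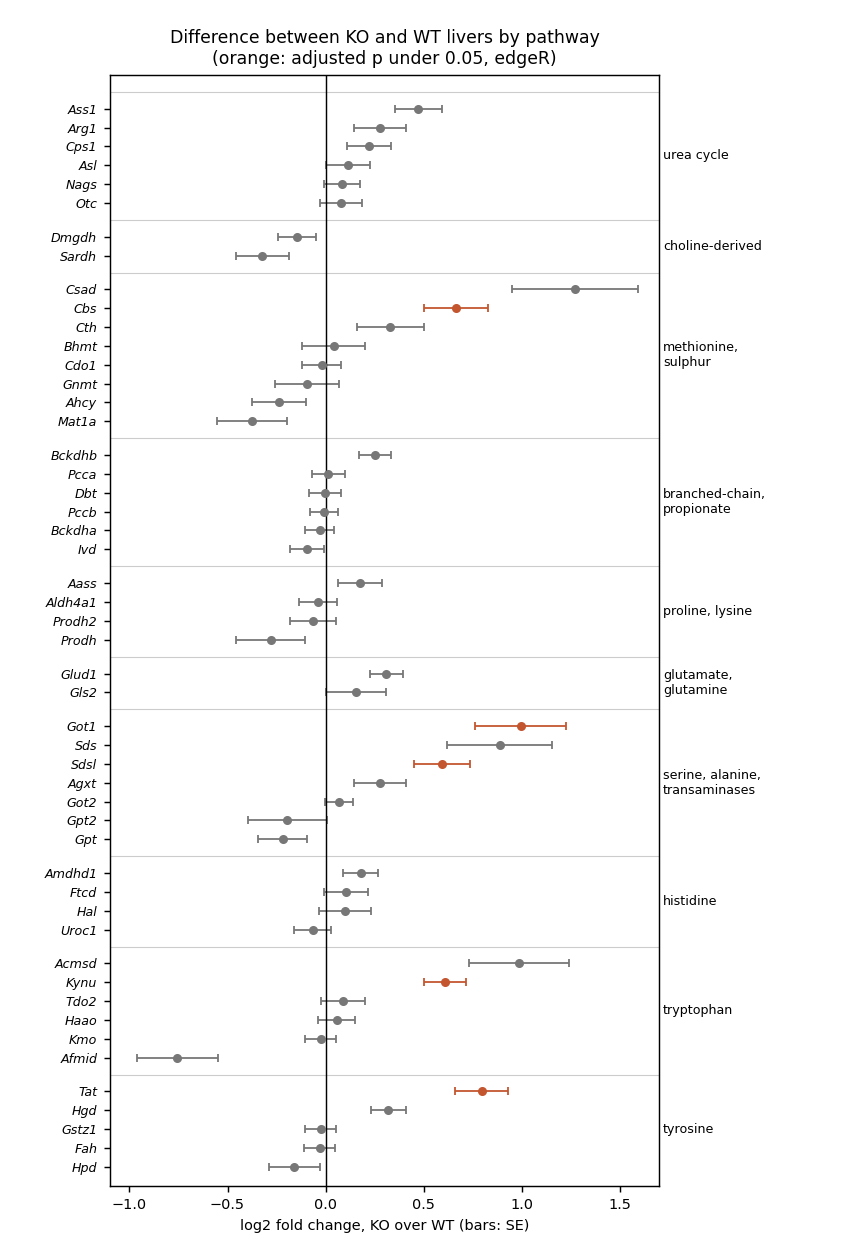
Log2 fold change of KO over WT livers (x axis) for each of the 50 genes (y axis), with its standard error as a bar, grouped by pathway. The 5 called genes, in orange, lie between 0.60 and 0.99, and all 6 urea cycle genes lie to the right of 0 without passing.

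Other tests drew the line elsewhere. DESeq2 on the same counts called 11 of the 50 higher and 1, Afmid, lower, where it called 4.01% of all tested genes higher and 4.46% lower. The authors' deposited table listed, at an adjusted p under 0.05, 11 of the 50 as higher and 0 as lower, against 2.6% and 2.98% of all genes with a value there. The further genes in both were Hgd, Acmsd, Sds, Glud1, Csad and Ass1, whose edgeR adjusted p ran from 0.0538 to 0.0950. The authors' tools included DESeq2, so both lists rest on that tool and the same counts and are not independent. With limma-voom, 6 of the 50 were called higher, Tat, Kynu, Acmsd, Sdsl, Got1 and Cbs, and 0 lower. It called 377 of all 15000 genes. The groups did not overlap for 4 of the 50, Tat, Got1, Acmsd and Ass1, all higher in every KO library than in any WT library. That was so, by the same count, for 1.29% of all tested genes, and 1.24% were lower in every KO library.

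Tat lies on chromosome 8 at 109990437 to 109999803 (GRCm38, ENSMUSG00000001670) and encodes tyrosine aminotransferase, which removes the amino group of tyrosine. Its level was 1186, 1259, 999, 1238, 1483 and 1165 CPM across KO libraries 1 to 6, against 496, 763, 948, 665, 683 and 668 CPM across WT libraries 1 to 6. Every KO library lay above every WT library, with KO library 3 and WT library 3 the closest pair. Tat rose 1.74-fold, from 704 ± 148 to 1222 ± 157 CPM (SD, n = 6 each), or by 0.80 ± 0.14 (SE) in log2 terms (edgeR, Benjamini-Hochberg adjusted p = 0.0176). Without WT library 4 the adjusted p was 0.0502 (edgeR), and without any other single library the call held.

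No other gene of the tyrosine pathway was called. Hgd, which opens the ring of homogentisate, stood at 0.32 ± 0.09 (log2 fold change, SE) and did not pass (edgeR, adjusted p = 0.0713). Its level was 510.0, 427, 565, 548, 495 and 607 CPM in KO and 396, 408, 478, 419.6, 439 and 386 CPM in WT, where KO library 2 was the one KO library within the WT range. Hpd, the dioxygenase that follows Tat, stood at -0.16 ± 0.13, Gstz1, an isomerase, at -0.03 ± 0.08, and Fah, which splits fumarylacetoacetate at the end of the pathway, at -0.03 ± 0.08 (log2, SE). Per kilobase of exon Tat stayed below Hpd in all 12 libraries. The ratio of Tat to Hpd on that scale averaged 0.655 ± 0.165 over KO livers and 0.333 ± 0.0872 over WT livers (SD, n = 6 each). It ran from 0.422 to 0.836 and from 0.234 to 0.459, with KO library 3 inside the WT range.

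Kynu, on chromosome 2 at 43555329 to 43682715 (ENSMUSG00000026866), encodes kynureninase. Its level was 226, 164, 224, 232, 221 and 262 CPM across KO libraries 1 to 6, against 149, 127, 149.8, 133, 141 and 173 CPM across WT libraries 1 to 6. Only KO library 2 fell below the highest WT library, number 6. Kynu rose 1.53-fold (log2 0.61 ± 0.11 SE, edgeR, Benjamini-Hochberg adjusted p = 0.0176). Its call ended without WT library 2 (adjusted p = 0.0504, edgeR) or WT library 4 (0.0506).

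Around Kynu the tryptophan genes went different ways. Acmsd, whose enzyme diverts an intermediate away from quinolinate and NAD synthesis, stood at 14.4, 10.8, 13.1, 16.1, 10.8 and 16.3 CPM in KO and 5.12, 3.78, 10.3, 4.27, 6.96 and 10.7 CPM in WT. The groups touched without overlapping, and the log2 fold change of 0.99 ± 0.25 (SE) did not pass (edgeR, adjusted p = 0.0567). Afmid, the kynurenine formamidase, had the lowest value of all 50, -0.76 ± 0.21 (log2, SE, edgeR adjusted p = 0.0699). It read 18.2, 17.8, 25.6, 25.0, 21.8 and 20.1 CPM in KO and 27.0, 47.4, 33.2, 48.1, 42.2 and 18.8 CPM in WT, so WT library 6 sat among the KO libraries and the other WT libraries above them. Afmid shares 83 exon bases with Tk1 on the opposite strand, and the strand setting of the counting is not given, so its reads are uncertain. Tdo2, the dioxygenase that opens the pathway, Kmo, the kynurenine hydroxylase, and Haao, the hydroxyanthranilate dioxygenase, stood at 0.09 ± 0.11, -0.03 ± 0.08 and 0.06 ± 0.09 (log2, SE).

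Got1, on chromosome 19 at 43499752 to 43524605 (ENSMUSG00000025190), encodes the cytosolic enzyme that exchanges amino groups between glutamate and aspartate. Its level was 144, 211, 163, 354, 157 and 170.3 CPM across KO libraries 1 to 6, against 57.7, 113, 106, 101, 119 and 106 CPM across WT libraries 1 to 6. The groups did not overlap, but KO library 4 was far above the other KO libraries and WT library 1 far below the other WT libraries. Got1 rose 1.99-fold (log2 0.99 ± 0.23 SE, edgeR, Benjamini-Hochberg adjusted p = 0.0420). Its mitochondrial counterpart Got2 stood at 485 ± 39.8 CPM in KO and 463 ± 21.2 CPM in WT (SD, n = 6 each), a log2 fold change of 0.07 ± 0.07 (SE). Per kilobase of exon the ratio of Got1 to Got2 was 0.785 ± 0.304 in KO, up to 1.36 in library 4, and 0.411 ± 0.0852 in WT, and each KO ratio was above the highest WT ratio of 0.508.

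The call of Got1 ended when any one of KO libraries 2, 5 and 6 and WT libraries 1 to 5 was left out (edgeR adjusted p from 0.0518 to 0.102), while its log2 fold change stayed between 0.74 and 1.07 over all 12 omissions.

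Sdsl and Sds, which both act on serine and threonine, lie 3715 bases apart on chromosome 5 and are read outward from each other. Sdsl (120458186 to 120472810, ENSMUSG00000029596) had 13.3, 11.99, 9.44, 11.8, 10.8 and 10 CPM across KO libraries 1 to 6, against 5.21, 6.95, 8.28, 6.51, 7.56 and 10.1 CPM across WT libraries 1 to 6. WT library 6 lay among the KO libraries and the other 5 WT libraries below all of them. Sdsl rose 1.51-fold (log2 0.60 ± 0.14 SE, edgeR, Benjamini-Hochberg adjusted p = 0.0425). Leaving out KO library 1, 2, 4, 5 or 6 or WT library 1, 2, 3, 4 or 5 in turn ended its call (edgeR adjusted p from 0.0543 to 0.111).

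Sds, serine dehydratase, had a larger and more scattered difference. It read 80.9, 109, 81.0, 172, 57.1 and 81.1 CPM in KO and 26.6, 46.7, 62.3, 54.8, 66.3 and 57.3 CPM in WT. KO library 4 was the highest and WT library 1 the lowest, as for Got1, and KO library 5 lay within the WT range. Its log2 fold change of 0.89 ± 0.27 (SE) did not pass (edgeR, adjusted p = 0.0950). Sds shares 501 exon bases with Plbd2 and Gm15690 on the opposite strand, so its reads are uncertain. Agxt, which detoxifies glyoxylate in peroxisomes, stood at 0.28 ± 0.13, and the alanine transaminases Gpt, cytosolic, and Gpt2, mitochondrial, at -0.22 ± 0.12 and -0.20 ± 0.20 (log2, SE).

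**Figure D2:**
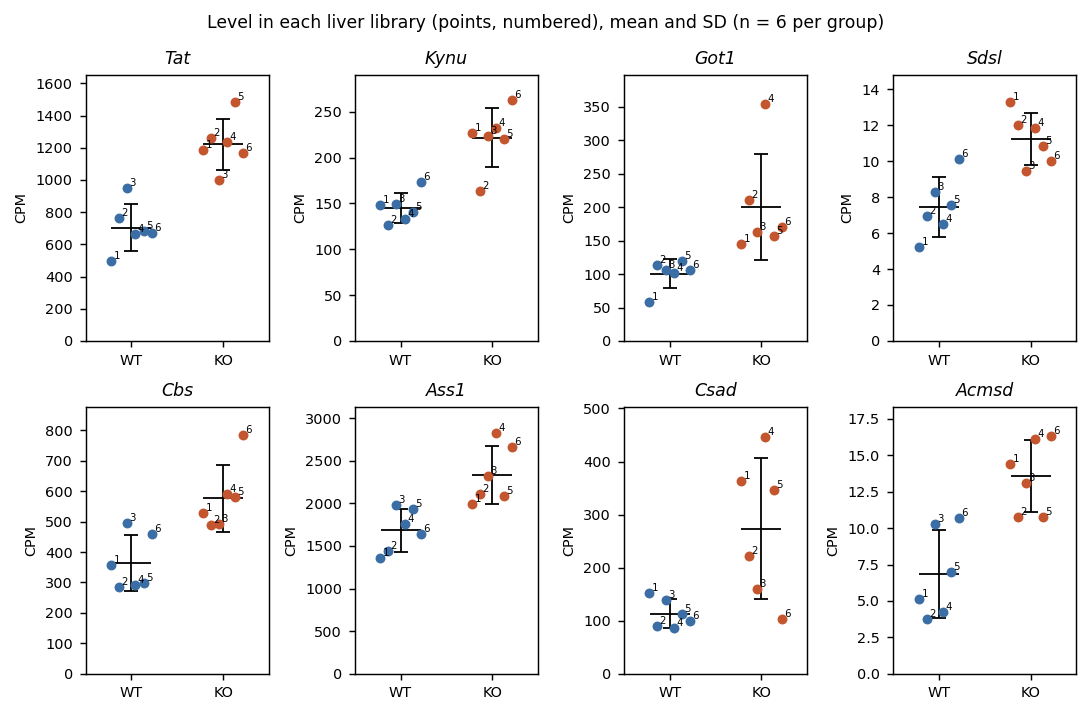
Level in CPM (y axis, from 0) of the 5 genes that rose and of Ass1, Csad and Acmsd in each WT and KO library (numbered points), with the mean and SD of each group of 6. No KO library falls into the WT range for Tat, Got1, Ass1 and Acmsd, and Csad runs from 103 to 447 CPM in KO.

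Cbs, on chromosome 17 at 31608894 to 31637238 (ENSMUSG00000024039), encodes cystathionine beta-synthase. Its level was 528, 489, 491, 590.2, 579 and 785 CPM across KO libraries 1 to 6, against 356, 284, 496, 292, 298 and 459.5 CPM across WT libraries 1 to 6. WT library 3 reached the lowest KO libraries, and the remaining WT libraries lay below all KO libraries. Cbs rose 1.58-fold (log2 0.66 ± 0.16 SE, edgeR, Benjamini-Hochberg adjusted p = 0.0471). Leaving out any one KO library, or one of WT libraries 1, 2, 4 and 5, ended its call (edgeR adjusted p from 0.0543 to 0.122).

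Beyond Cbs, the sulphur branch held the largest difference of the 50 genes, in Csad. Csad encodes the decarboxylase that makes hypotaurine, the precursor of taurine. It stood at 362, 222, 161, 447, 346 and 103 CPM in KO and 152, 90.3, 138, 86.4, 113 and 99.6 CPM in WT. Of the KO libraries, 5 lay above all WT libraries and number 6 lay among them, and the 2.41-fold difference (log2 1.27 ± 0.32 SE) did not pass (edgeR, adjusted p = 0.0567). Csad shares 278 exon bases with Zfp740 on the opposite strand, so its reads are uncertain. Cth, which completes cysteine synthesis after Cbs, stood at 0.33 ± 0.17, and Cdo1, which oxidises cysteine, at -0.02 ± 0.10 (log2, SE).

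The methionine cycle itself had no called gene. Mat1a, which makes S-adenosylmethionine, read 2589.7, 2676, 2761, 3518, 2532 and 2539 CPM in KO and 3525, 4303, 2753, 4889, 4035 and 2071 CPM in WT. WT library 6 lay below all KO libraries, WT library 3 within their range and the other 4 WT libraries above it, and the log2 fold change of -0.38 ± 0.18 (SE) did not pass (edgeR, adjusted p = 0.242). Ahcy, which releases homocysteine, stood at -0.24 ± 0.14, Gnmt, a glycine methyltransferase, at -0.09 ± 0.16, and Bhmt, which remethylates homocysteine with betaine, at 0.04 ± 0.16 (log2, SE). Bhmt has a close copy, Bhmt2, with which reads may have been shared. Of the choline-derived methyl donors, Sardh, sarcosine dehydrogenase, read 801, 797, 1069, 1118, 873 and 1022 CPM in KO and 1199, 1181, 1158, 1473, 1282 and 812 CPM in WT. WT library 6 was again the one that lay with the KO libraries (log2 fold change -0.32 ± 0.13 SE, edgeR adjusted p = 0.187). Dmgdh, the dehydrogenase before it, stood at -0.15 ± 0.10.

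All 6 urea cycle genes had positive values and 0 passed. Ass1, which joins citrulline to aspartate, came closest, at 1995, 2112, 2319.6, 2822, 2081 and 2667 CPM in KO and 1354, 1441, 1976, 1753, 1935 and 1638 CPM in WT. The groups did not overlap, with KO library 1 just above WT library 3, and the 1.39-fold difference (log2 0.47 ± 0.12 SE) had an edgeR adjusted p of 0.0538. Arg1, which releases urea, stood at 0.28 ± 0.13, Cps1, which fixes ammonia as carbamoyl phosphate, at 0.22 ± 0.11, and Asl, which splits argininosuccinate, at 0.11 ± 0.11 (log2, SE). Nags, whose product activates Cps1, and Otc, which makes citrulline, stood at 0.08 ± 0.09 and 0.08 ± 0.11.

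Glud1, the mitochondrial glutamate dehydrogenase that releases ammonia, had a small difference with little scatter. It read 1432, 1391, 1348, 1524, 1654 and 1683 CPM in KO and 1248, 1158, 1358, 1263, 1044 and 1219.6 CPM in WT. KO library 3 alone lay below the highest WT library, number 3, and the log2 fold change of 0.31 ± 0.09 (SE) did not pass (edgeR, adjusted p = 0.0677). Gls2, liver glutaminase, stood at 0.15 ± 0.15 (log2, SE).

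Histidine, proline, lysine and branched-chain genes held no called member. In histidine breakdown Amdhd1 had the smallest p, with 213, 195, 213, 228, 209 and 267 CPM in KO and 199, 192, 224, 168, 178 and 209.7 CPM in WT (log2 fold change 0.18 ± 0.09 SE, edgeR adjusted p = 0.269). The groups overlapped, and the other histidine genes Hal, Ftcd and Uroc1, which start, end and carry the middle of the pathway, stood at 0.10 ± 0.13, 0.11 ± 0.11 and -0.07 ± 0.09 (log2, SE). Aass, which starts lysine breakdown, read 287, 334, 381, 400.5, 246 and 324 CPM in KO and 319, 318, 277, 278, 300.0 and 254 CPM in WT, with KO values on both sides of the WT range (log2 0.18 ± 0.11 SE, edgeR adjusted p = 0.382). The proline genes Prodh, Prodh2, for hydroxyproline, and Aldh4a1, which follows both, stood at -0.28 ± 0.18, -0.06 ± 0.12 and -0.04 ± 0.10.

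Bckdhb, a subunit of the complex that commits branched-chain keto acids to breakdown, read 108, 109.9, 127, 126, 114 and 125 CPM in KO and 83.8, 101, 117, 104, 93.7 and 95.4 CPM in WT. Apart from WT library 3 the WT libraries lay below all KO libraries, and the log2 fold change of 0.25 ± 0.08 (SE) did not pass (edgeR, adjusted p = 0.102). The other subunits of that complex, Bckdha and Dbt, stood at -0.03 ± 0.07 and 0.00 ± 0.08, and Ivd, of leucine breakdown, at -0.09 ± 0.09 (log2, SE). Bckdha shares 1171 exon bases with B3gnt8 on the opposite strand, so its reads are uncertain. Pcca and Pccb, the subunits of propionyl-CoA carboxylase, stood at 0.01 ± 0.09 and -0.01 ± 0.07. Gstz1, Gls2, Pcca and Bhmt also share exon bases with genes on the opposite strand (621, 97, 241 and 187), and so do Sds, Afmid and Csad as given above, while none of the 5 called genes overlaps another tested gene.

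**Figure D3:**
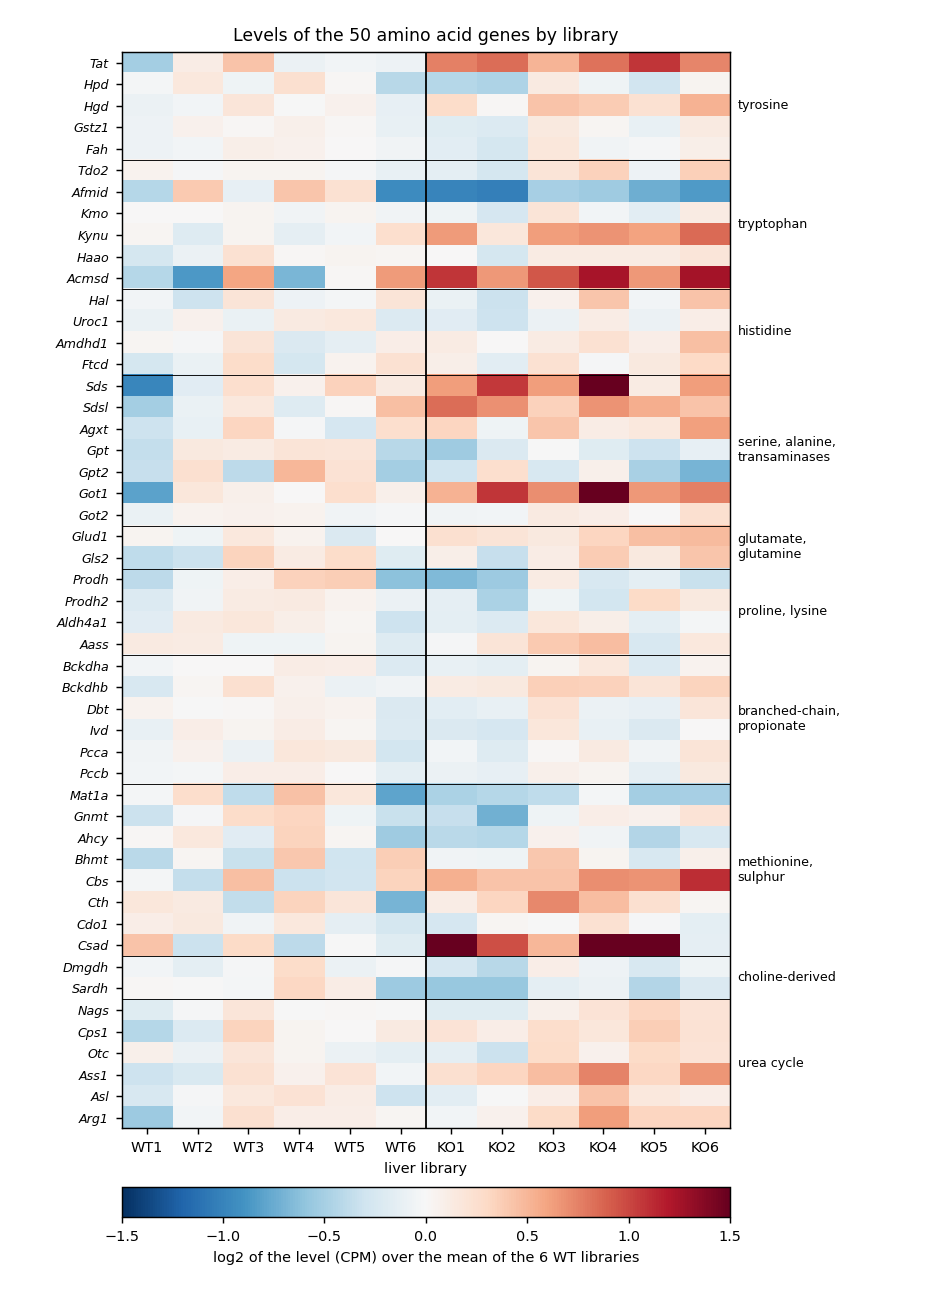
Level of each of the 50 genes (rows, by pathway) in each library (columns), as the log2 of its CPM over the mean of the 6 WT libraries, with the colour scale ending at -1.5 and 1.5. Tat, Kynu, Acmsd, Got1, Sdsl, Sds, Cbs and Ass1 are red in the KO columns, Afmid is blue, and WT library 6 carries the KO colour for Afmid, Sdsl, Mat1a and Sardh.

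Levels between genes were compared per kilobase of exon. The length was the union of all annotated exons of a gene, 2539 bases for Got1 and 4824 for Got2. Ranks here and the ratios above therefore depend on the annotation. On that scale Mat1a was the highest of the 50 in WT livers, at 1037 CPM per kilobase, followed by Gnmt at 1009, Cdo1 at 969, Hpd at 898 and Bhmt at 721. The urea cycle ran from 697 CPM per kilobase for Ass1 to 22.8 for Nags, its least abundant member. Of the called genes Tat was at rank 11 (293 CPM per kilobase), and the other 4 were in the lower part of this order, Cbs at 37 (48.7), Got1 at 38 (39.6), Kynu at 45 (23.6) and Sdsl at 49 (4.97), and Acmsd at 2.42 was the lowest.

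Libraries differed among themselves within the groups. KO library 6 held the highest level of all 12 libraries for 14 of the 50 genes, and KO libraries 3 and 4 and WT library 4 for 9 each. The lowest level lay in KO library 2 for 15 genes, in WT library 1 for 13 and in WT library 6 for 10. In all, the highest level lay in a KO library for 38 of the 50 genes and in a WT library for 12, and the lowest in a KO library for 20 and in a WT library for 30. The same count was not made over all tested genes, so these numbers cannot be read as particular to the 50.

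Promoter sequences are shown for the 3 called genes present in the RefSeq promoter table (GRCm38.p6), as the stretch before the transcription start that may be compared between genes rising together. The table held 38 of the 50 genes. Capitals mark matches to any of 7 short motifs, searched on both strands in the 250 bases before the start: TGACG, the half-site of the cAMP response element; CACGTG, the E-box bound by clock factors; TTANNTAA, a D-box; ACANNNTGT, a glucocorticoid receptor pattern; TTGCNNAA, for C/EBP factors; TATAAA; and AGGTCA, a nuclear receptor half-site. The Tat stretch is at chr8:109990186-109990435 on the plus strand, that of Got1 at chr19:43524606-43524855 on the minus strand, and that of Cbs at chr17:31637239-31637455 on the minus strand, cut where the GENCODE gene begins.
Tat: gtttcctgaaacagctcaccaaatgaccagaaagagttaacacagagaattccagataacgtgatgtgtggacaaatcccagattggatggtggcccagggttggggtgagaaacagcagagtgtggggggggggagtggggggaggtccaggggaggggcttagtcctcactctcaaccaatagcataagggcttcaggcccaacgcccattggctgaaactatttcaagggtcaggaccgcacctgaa
Got1: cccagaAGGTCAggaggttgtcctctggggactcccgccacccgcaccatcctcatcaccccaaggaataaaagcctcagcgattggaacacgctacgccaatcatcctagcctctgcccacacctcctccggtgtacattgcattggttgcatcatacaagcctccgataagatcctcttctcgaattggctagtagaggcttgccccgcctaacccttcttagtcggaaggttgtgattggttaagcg
Cbs: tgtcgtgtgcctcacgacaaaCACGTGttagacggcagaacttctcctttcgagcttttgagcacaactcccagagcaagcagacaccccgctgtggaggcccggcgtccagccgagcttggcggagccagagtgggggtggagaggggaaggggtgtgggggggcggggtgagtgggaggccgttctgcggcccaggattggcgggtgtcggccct

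The Tat stretch held none of the 7 motifs, Got1 held AGGTCA at -244 to -239 and Cbs held CACGTG at -229 to -224, counted from the RefSeq transcription start. On that count the printed Cbs stretch ends at -34, where the GENCODE gene begins. AGGTCA was found for 16 of the 38 genes and in 14.0% of 32851 mouse promoter windows of this length, CACGTG for 2 of 38, Cbs and Ass1, and in 6.02%. Matches to TGACG were found for 5 of 38 (17.8% of all windows), to TTANNTAA for 0 (5.43%), to ACANNNTGT for 4 (5.84%), to TTGCNNAA for 4 (9.56%) and to TATAAA for 5 (12.4%). Each of the 38 genes counted once, by its first window, while the shares cover every window, and a gene can have several. The shares are also not limited to the genes tested here, so the sets are unlike. The 3 called genes shared no motif of this set in the window. A match is a match of letters only, and factor binding was not measured.

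Outside the 50 genes, related lists showed few calls. Of 54 tested enzymes of other amino acid breakdown steps, 1 rose and 1 fell, with a median log2 fold change of -0.03. Ethe1, which oxidises sulphide-derived persulphides in mitochondria, read 44.9, 48.9, 47.8, 51.8, 45.0 and 59.1 CPM in KO and 38.4, 31.0, 43.9, 36.2, 34.3 and 41.4 CPM in WT. The groups did not overlap, and Ethe1 rose by 0.40 ± 0.09 (log2, SE, edgeR adjusted p = 0.0387). Bcat2, the mitochondrial branched-chain transaminase, read 29.7, 31.9, 28.5, 26.9, 36.9 and 24.1 CPM in KO and 39.0, 41.2, 45.4, 41.7, 37.2 and 38.9 CPM in WT. Every KO library lay below every WT library, and Bcat2 fell by 0.45 ± 0.09 (log2, SE, edgeR adjusted p = 0.0267).

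Of 28 tested amino acid transporters 2 rose and 0 fell. Slc25a15, the mitochondrial ornithine carrier that links the mitochondrial and cytosolic steps of the urea cycle, read 332, 265, 352, 332, 334 and 392 CPM in KO and 227, 212, 259.8, 234, 236 and 258 CPM in WT. Its groups did not overlap, and it rose 1.41-fold (log2 0.49 ± 0.09 SE, edgeR adjusted p = 0.0201). Slc1a4, a carrier of small neutral amino acids, read 8.94, 10.3, 7.78, 7.37, 12.03 and 13.7 CPM in KO and 5.03, 4.09, 6.60, 6.40, 6.01 and 5.14 CPM in WT, again without overlap, and rose 1.81-fold (log2 0.85 ± 0.17 SE, edgeR adjusted p = 0.0248). Of 8 tested genes of amino acid synthesis 0 passed, and Psph, of serine synthesis, had the smallest p (log2 0.58 ± 0.16 SE, edgeR adjusted p = 0.0663).

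Among 21 tested regulators of these genes 0 rose and 1 fell, and 16 had negative values, with a median of -0.10. Over all 15000 tested genes 7414 values were negative. Foxo1, a transcription factor restrained by insulin, read 40.2, 43.4, 32.4, 32.9, 30.7 and 37.3 CPM in KO and 49.2, 54.4, 47.2, 61.8, 50.3 and 39.1 CPM in WT. KO libraries 1 and 2 lay above WT library 6, the lowest of WT, and Foxo1 fell by 0.48 ± 0.11 (log2, SE, edgeR adjusted p = 0.0394). At an unadjusted p under 0.05 (edgeR) 2 of the 21 were higher and 7 lower, against 1601 and 1583 of all 15000 tested genes. Further regulators, which did not pass, are given after their values were seen. Nr1h4, Nr3c1 and Klb stood at -0.40 ± 0.10, -0.26 ± 0.08 and -0.38 ± 0.13 (log2, SE). Their adjusted p was 0.0558, 0.0968 and 0.113 by edgeR and 0.0105, 0.0457 and 0.0665 by DESeq2. Creb3l3 and Cebpb stood at -0.23 ± 0.09 and -0.46 ± 0.19 (log2, SE, edgeR adjusted p = 0.172 and 0.193). Ppara, the fatty acid receptor of hepatocytes, read 118, 115, 113, 35.2, 123 and 29.0 CPM in KO and 174, 203, 189, 191, 208 and 129.96 CPM in WT. Every KO library lay below every WT library, KO libraries 4 and 6 far below (log2 -1.04 ± 0.35 SE, edgeR adjusted p = 0.121, DESeq2 adjusted p = 0.0181). Atf4, the factor of the amino acid shortage response, read 81.3, 99.7, 109.8, 106, 148 and 132 CPM in KO and 84.2, 69.3, 87.2, 72.0, 63.9 and 92.2 CPM in WT. All KO libraries but number 1 lay above all WT libraries (log2 0.53 ± 0.14 SE, edgeR adjusted p = 0.0556, DESeq2 adjusted p = 0.00962). Ddit3, Trib3 and Sesn2 of the same list stood at 0.76 ± 0.33, -0.49 ± 0.35 and -0.23 ± 0.19 (log2, SE). The calls of Slc25a15, Slc1a4, Bcat2, Ethe1 and Foxo1 also ended without single libraries, WT libraries 2 and 4 among them for each (edgeR adjusted p up to 0.0967 over the omissions).

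Genes of the circadian clock differed between the same libraries. A clock phase score was computed for each library from 16 clock genes, those of the Arntl and Cry1 phase minus those of the Dbp and Per phase, as standardised log2 CPM. It averaged 1.03 ± 1.01 over KO livers and -1.03 ± 0.812 over WT livers (SD, n = 6 each; exact two-sided permutation test p = 0.00433, Benjamini-Hochberg 0.0606 over 14 library measures). With the score as a covariate 0 of 15000 genes were called by edgeR, 1066 of them at an unadjusted p under 0.05, and 0 of the 50. In that fit Tat stood at 0.92, Kynu at 0.53, Got1 at 1.06, Sdsl at 0.44 and Cbs at 0.45 (log2 fold change, edgeR, unadjusted p = 0.00133, 0.00651, 0.0183, 0.0711 and 0.0952). KO library 3 and WT library 6 had scores inside the range of the other genotype, -0.629 and 0.291. In KO library 3 Tat and Sdsl were the lowest and Cbs the second lowest of the KO libraries, while Got1 and Kynu lay in the middle. In WT library 6 Kynu and Sdsl were the highest and Cbs the second highest of the WT libraries, while Tat and Got1 lay in the middle. Apart from KO library 3 and WT library 6 the score followed the genotype, so clock phase and genotype cannot be told apart in this fit. The part of the clock difference in these rises was not tested.

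**Figure D4:**
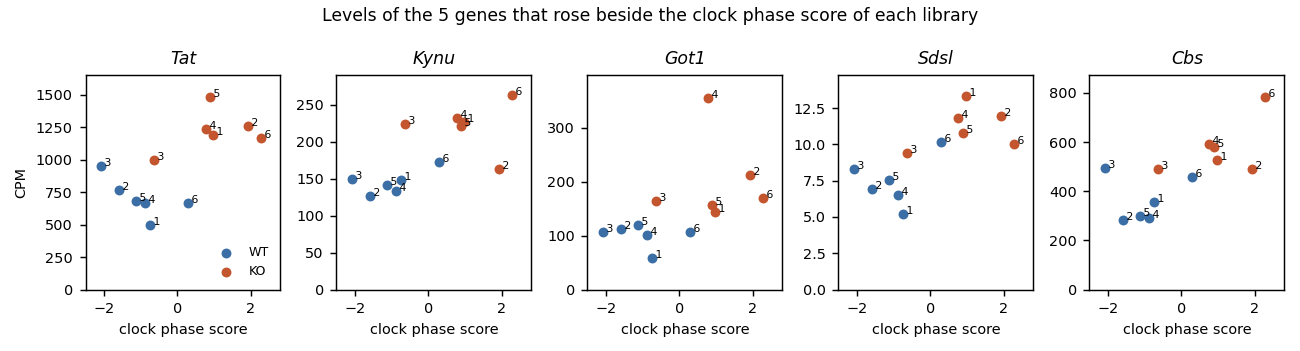
Level in CPM (y axes, from 0) of the 5 genes that rose beside the clock phase score of each library (x axes), WT in blue and KO in orange with library numbers. KO libraries lie to the right of WT except KO library 3 at -0.629 and WT library 6 at 0.291.

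Marker genes of other cells differed too. Of 20 macrophage markers 3 fell in KO and 0 rose, with a summed level of 278 to 541 CPM in KO and 443 to 705 CPM in WT (score difference -0.937, exact permutation p = 0.0260, Benjamini-Hochberg 0.121). At an unadjusted p under 0.05 (edgeR) 12 of them were lower and 1 higher, against 1583 and 1601 of all 15000 tested genes. In bulk tissue, fewer cells of a type and less RNA per cell cannot be told apart. With the macrophage score as a covariate 20 of all genes were called, and of the 50 Got1 alone (log2 1.42, edgeR). In that fit the log2 fold changes of Tat and Sdsl were 0.76 and 0.61, against 0.80 and 0.60 without the score, and those of Kynu and Cbs were 0.48 and 0.40, against 0.61 and 0.66 (edgeR adjusted p = 0.121, 0.197, 0.148 and 0.333 for Tat, Sdsl, Kynu and Cbs with the score). Periportal hepatocyte markers, where many of the 50 genes are active, had 15 tested, 0 called and a median of 0.03, and hepatocyte markers a median of -0.01 with 0 of 16 called. Of 20 pericentral markers 1 rose, Slc1a4, and 1 fell, Nr1i3, with a median of -0.38 (score difference -0.460, exact permutation p = 0.132, Benjamini-Hochberg 0.264). Of these pericentral markers 14 had negative values, and at an unadjusted p under 0.05 (edgeR) 7 were lower and 1 higher. Of 5 tested T and NK cell markers 1 fell, Lck (log2 -1.30 ± 0.30 SE, edgeR adjusted p = 0.0394), with every KO library below every WT library and all 12 at or under 1.06 CPM. All 4 tested genes of the adipocyte marker list had positive values, 2 of them at an unadjusted p under 0.05 and 0 called, with a median of 0.62 and a summed level of 528 to 882 CPM in KO and 519.8 to 663 CPM in WT. That list includes Adipor2 and Cidec, whose reads in liver need not come from adipocytes, so the sum was not assigned to a cell type. B cell and skeletal muscle marker scores were also lower in KO (difference -0.779 and -1.08, exact permutation p = 0.0260 and 0.0411, Benjamini-Hochberg 0.121 and 0.144). The part of these markers in the results was not tested further.

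**Figure D5:**
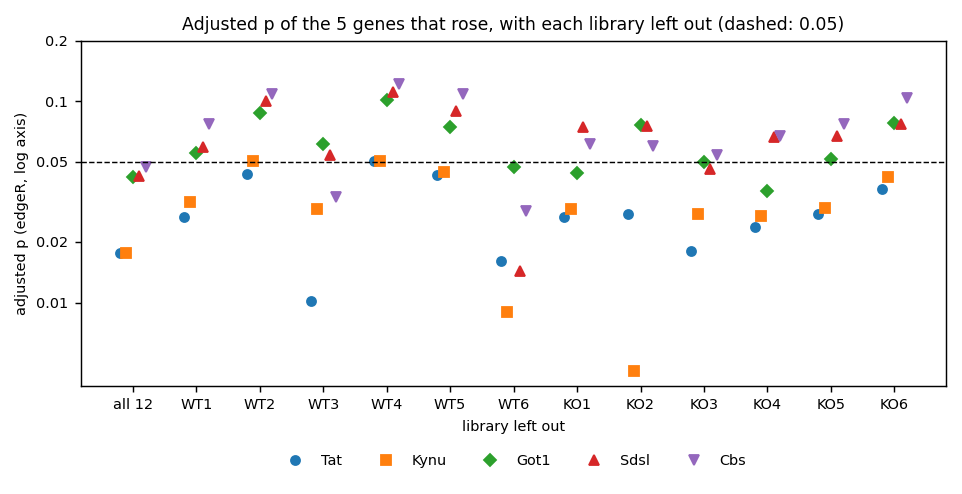
Adjusted p (edgeR, log axis) of the 5 genes that rose with all 12 libraries and with each library left out (x axis), with 0.05 as a dashed line. Without WT library 4 all 5 lie above the line, from 0.0502 for Tat to 0.122 for Cbs, and Tat is above it in that fit alone.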

How the data were processed

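Liver RNA was polyA-selected, per the labels' protocols, and whole-number read counts per gene were deposited, not normalized, per the file headers and the values. Per the submitters' processing notes the tools were HISAT2, featureCounts and DESeq2, with FastQC, Trimmomatic and SAMtools, and the build was GRCm38. Tool versions, annotation, strand setting and treatment of shared reads were not stated there. The authors deposited their own comparison too, as log2 fold change with its standard error and test score, p-value and adjusted p-value, and a mean normalized signal, per the file headers. The first row of each of 15140 genes was kept, and 204 repeated rows with identical counts were dropped. edgeR 4.0.16 (R 4.3.3) was run with TMM scaling, filterByExpr (15000 genes kept) and the robust quasi-likelihood F test, two-sided, with Benjamini-Hochberg adjustment over all tested genes. The standard error is the unshrunk log2 fold change over the square root of F. CPM are TMM-scaled, and exon lengths and positions came from GENCODE M21. The edgeR fit without a covariate or block was checked on counts simulated with the dispersions of these data and no outlying library. That check does not bear on calls that end without single libraries. All 30 within-group pairs of libraries had counts further apart than sampling gives (chi-square from 38.1 to 242 times its degrees of freedom). Members and lists were chosen with earlier results of these data known. Every library value is given for called genes and for the gene with the smallest p of each pathway. For Hgd, Acmsd, Afmid, Sds, Csad and Mat1a this was added after their values were seen. Alternatives were DESeq2 1.42.0, limma-voom (3.58.1), RLE or total-count scaling, no filter or 1 CPM in 6 libraries, a replicate block, clock or macrophage score covariates, and each library left out.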

Additional observations from a re-analysis of the deposited data

Results flagged for a closer look

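Among 100 groups of 6 libraries examined, the 50 genes in KO and in WT, 6 had 1 library well apart from its group by Dixon's criterion, a number chance puts at about 5. The values are the distance from that library to its closest neighbour as a share of the group's whole range in log2 CPM. Got1 was low in WT library 1 (0.772), at 57.7 CPM against 101 to 119 in the others, and Arg1 was low in the same library (0.636), at 627 CPM against 889 to 1084. Kynu was low in KO library 2 (0.633), at 164 CPM against 221 to 262. Mat1a was high in KO library 4 (0.737), at 3518 CPM against 2532 to 2761, Dmgdh was high in WT library 4 (0.699), at 724 CPM against 543 to 592, and Dbt was low in WT library 6 (0.728), at 88.0 CPM against 102 to 107. Got1 and Kynu are called genes. Without the library concerned the log2 fold change of Got1 was 0.88 (edgeR adjusted p = 0.0551) and that of Kynu was 0.68 (edgeR adjusted p = 0.00455).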

How the results depend on the processing

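The 5 genes that rose kept a positive sign in all 21 alternatives, and their call was lost in 43 of 105 such values. Against 5 of the 50 that rose and 0 that fell, and 172 and 224 of all genes, DESeq2 gave 11 and 1, and 583 and 649. Scaling by total counts gave 3 that rose and 94 of all genes, losing Got1 (edgeR adjusted p = 0.0602) and Sdsl (0.0647). With the macrophage score as a covariate 1 of the 50 and 10 of all genes rose and 10 fell; with the clock phase score 0 of the 50 and 0 of all genes rose and 0 fell. Leaving out each library in turn gave 0 to 6 of the 50 that rose, 0 to 1 that fell, 8 to 320 of all genes that rose and 17 to 380 that fell, with the lowest counts without WT library 4 and the highest without WT library 6. The number was 1 of the 50 without WT library 2, 2 without KO library 5, WT library 1 or WT library 5, and 3 without KO library 1, 2, 4 or 6.

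In the fit with a replicate block 5 of the 50 rose, Acmsd entering and Sdsl leaving, with 146 of all genes up and 228 down. Same-numbered libraries correlated in their deviations at -0.20 to 0.36, and in 3 of 6 pairs this was the best for the KO library. These values do not settle whether the numbers pair the samples. No label states a pairing, and the numbers were not taken as one.

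Signs changed in 58 of 1050 values of the 50 genes, none of a called gene, and by over 1 standard error in 21. Under the clock phase score these were Hpd 0.0753, Gstz1 0.0774, Fah 0.0926, Kmo 0.0876, Gpt 0.0352, Prodh 0.18, Aldh4a1 0.25, Bckdha 0.0674, Dbt 0.10, Ivd 0.10, Pccb 0.0619, Gnmt 0.13, Ahcy 0.0550 and Cdo1 0.10 (log2 fold change). Under the macrophage score they were Uroc1 0.0344, Ftcd -0.0789, Gpt2 0.33, Bckdha 0.0645, Mat1a 0.0198, Cdo1 0.13 and Otc -0.0765. With the clock phase score 44 of 50 values were positive, and their median was 0.15, against -0.0053 over all genes. The share of positive values over all genes was not counted in that fit. The cause was not tested. Depth was not the limit for these genes, whose lowest mean was 9.34 CPM.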
